A study of Mus musculus with 16 samples.

Results

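Levels of 10 genes of the E2F and retinoblastoma families were followed in ear skin of ageing mice. The 10 genes are E2f1, E2f2, E2f3, E2f4, E2f5, E2f7, E2f8, Rb1, Rbl1 and Rbl2. They were picked by symbol from the 45706 genes of the count table, and all 10 were found there and passed the filter on low counts that 21526 genes passed. RNA was sequenced from ear clips of 8 C57Bl/6J mice, an inbred strain, with no transgene or treatment named. The mice were male by the study's methods. Each mouse was clipped once in each ear, at a nominal 24 and a nominal 30 months by the study's methods, which gave 16 libraries in 8 pairs. By the labels the mice were 23.8 to 24.4 months old at the first clip and 29.0 to 30.1 months old at the second, with 5.0 to 6.3 months between both clips of an animal. The labels call the ages young and old, but there is no library from a young adult, so the comparison asks how these genes differ between a late and a later age of the same animal, and the first and second ear cannot be told apart from the ages.

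E2F proteins are transcription factors that bind the promoters of genes needed to enter S phase and to copy DNA. Most of them bind DNA together with a DP protein. The pocket proteins, which are the retinoblastoma protein Rb1 and its relatives Rbl1 (p107) and Rbl2 (p130), bind E2F proteins and shut their target genes off in resting cells, until cyclin-dependent kinases phosphorylate the pocket proteins and release the E2Fs. In resting cells p130 joins E2F4 and the MuvB proteins in the DREAM complex, which also holds genes of mitosis silent through a promoter element called CHR. In skin, dividing cells are found mainly in the basal layer of the epidermis and in growing hair follicles, so that much of a whole ear clip comes from cells that do not divide. A clip mixes many cell types, and in such bulk tissue fewer cells of a type and less RNA per cell cannot be told apart.

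Genes received 22967222 to 36162431 counts per library (median 28877001 at 24 months and 29138399 at 30 months). Levels are given as counts scaled to the library total (CPM) after TMM scaling, which corrects for differences in library composition. The libraries held the markers of ear skin. The summed level of 6 basal keratinocyte markers had a median of 13860 CPM at 24 months and 12720 CPM at 30 months. Markers of cartilage, fibroblasts and skeletal muscle were present in every library. Flg, a late differentiation marker of keratinocytes, was near 0 (mean 0.0347 CPM at 24 months). The other differentiated keratinocyte markers had 24-month means from 65.4 CPM (Ivl) to 11380 CPM (Krt10), with Lor at 2461 CPM. Why Flg had so few counts was not tested. The 30-month libraries of mouse 29 and mouse 50 stood apart from the rest, with 2072 and 1613 genes that were more than 1 log2 unit from the median of the 16 libraries, against 247 to 984 genes in the others. Results that rest on mouse 29 are given with and without it, and without mouse 50 the only member whose change turned sign was E2f2 (0.01), which lay next to 0.

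Promoter windows of 7 of the 10 genes were matched by symbol to RefSeq (GRCm38.p6), each running from 250 bases before to 50 bases after a transcription start. They were searched on both strands for an E2F-type element in 4 spellings (TTTCCCGC, TTTCGCGC, TTTGCCGC and TTTGGCGC), no 2 of which can lie on the same bases of a strand, and for the CHR element (TTTGAA). The E2F-type element was in 744 of 32851 promoter windows (2.27%) and the CHR element in 5878 (17.9%). Among the members, 4 genes had an E2F-type element in a window, and the surrounding bases are shown here. A link between these elements and the levels was not tested. Each line reads 5′ to 3′ on the strand of the gene, with the element in capitals, and the coordinates given with it are those of the bases printed.
Rbl1: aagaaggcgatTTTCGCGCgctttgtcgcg
E2f3: ttgaaaagccgGCGGGAAAtctgagtttcg
E2f7: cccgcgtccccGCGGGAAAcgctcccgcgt
E2f2: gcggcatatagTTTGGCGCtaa
The Rbl1 stretch is chr2:157204534-157204563 (minus strand), and its element began 18 bases before the start. In the E2f3 stretch (chr13:29986056-29986085, minus strand) the element began 11 bases before the start, and in the E2f7 stretch (chr10:110745230-110745259, plus strand) 198 bases before it. In the E2f2 stretch (chr4:136172302-136172323, plus strand) it began 39 bases after the start. In E2f3 and E2f7 the element was read on the opposite strand to the gene. The CHR letters were found for the following genes.
E2f3: tgcaaatatggTTTGAAaagccggcggg
E2f8: agcgggttaatTTCAAAtcgggggctgg
Rbl2: gtctttttctcTTCAAAcgagccttctg
In the E2f3 stretch (chr13:29986070-29986097, minus strand) they began 23 bases before the start, next to the E2F-type element, in the E2f8 stretch (chr7:48881600-48881627, minus strand) 20 bases before it and in the Rbl2 stretch (chr8:91069845-91069872, plus strand) 201 bases before it. A second start of E2f2 had a CHR match as well. No spelling of either element was found in the window of E2f1, which belongs to an alternative start inside the gene. These are matches of letters and not measured binding.

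The members spanned a wide range of levels. Compared per kilobase of exon (RPKM, mean of 16 libraries), E2f4 was the highest at 21.4 RPKM, followed by Rb1 (11.5), Rbl2 (10.01), E2f5 (7.95), E2f2 (5.96), Rbl1 (4.77), E2f1 (3.94), E2f3 (2.50) and E2f8 (2.02), and E2f7 was the lowest at 0.216 RPKM. E2f4, the E2F most tied to p130 in resting cells, was above Rb1 in all 16 libraries. At the other end, E2f8 was above E2f7 in all 16 libraries, with a within-library log2 ratio of 3.23 ± 0.23 (SD). Neighbours in the middle of the order were closer. The within-library log2 ratio of E2f2 to Rbl1 was 0.31 ± 0.33 (SD, 16 libraries) and that of Rbl1 to E2f1 was 0.34 ± 0.46. Both SDs exceeded the mean ratio, although E2f2 was above Rbl1 in 13 libraries and Rbl1 above E2f1 in all 16. Rb1 was above Rbl2 in 14 of 16 libraries, with a log2 ratio of 0.20 ± 0.17. Of the summed RPKM of the pocket proteins, Rb1 made up 45.2 ± 2.65% at 24 months and 42.1 ± 2.64% at 30 months, Rbl2 36.6 ± 1.0% and 39.5 ± 3.26%, and Rbl1 18.2 ± 3.17% and 18.4 ± 3.54% (SD, n = 8).

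**Figure D1:**
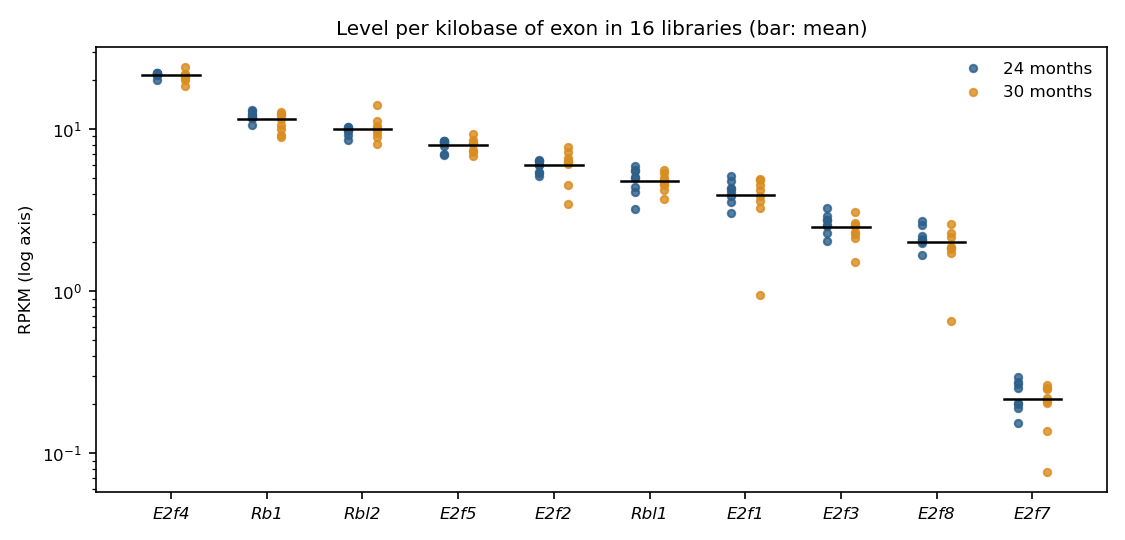
Level of each gene per kilobase of exon (RPKM, log axis) in each of the 16 libraries, with 24-month libraries in blue, 30-month libraries in orange and the mean of all 16 as a bar. E2f4 (mean 21.4 RPKM) leads the order and E2f7 (0.216 RPKM) ends it, and 1 orange point each of E2f1, E2f8 and E2f7 lies far below the rest of its gene.

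None of the 10 members passed the threshold of an adjusted p of 0.05 between the ages (quasi-likelihood test of edgeR on within-mouse pairs, adjusted by Benjamini-Hochberg over all 21526 genes). Across all genes tested, 0 passed it too (0.0%), with 2593 at an unadjusted p under 0.05 (12%) and 228 past the threshold in DESeq2's Wald test, none of them a member. At an unadjusted p under 0.05 there was 1 member, Rb1, of 10. The fitted change was positive for 2 members and negative for 8, against 51.7% positive among all genes tested, but without mouse 29 it was positive for 6 of the 10, against 52.7% of all genes in that fit. The median standard error of a log2 change over all genes was 0.121, and that of the members ran from 0.055 (E2f4) to 0.269 (E2f1).

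E2f1 (ENSMUSG00000027490, chr2:154559407-154569892), an activator that drives S phase genes, had 9.57 to 16.2 CPM at 24 months (median 13.1) and 3.0 to 15.4 CPM at 30 months (median 12.7). The ages overlapped, and the lowest of the 16 values was that of mouse 29 at 30 months, with the next lowest 30-month value at 10.2 CPM. In mouse 29 E2f1 went from 16.2 CPM, the highest 24-month value, to 3.0 CPM, or from 456 to 87 counts. Over the 8 mice the log2 change was -0.20 (standard error 0.269, adjusted p = 0.778 by edgeR), with 4 mice higher and 4 lower. Without mouse 29 it turned to 0.07 (standard error 0.109, adjusted p = 0.840 by edgeR, 7 mice). The spread of the 30-month values around their mean was 34.0% against 16.1% at 24 months.

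E2f2 (ENSMUSG00000018983, chr4:136172394-136196057), a second activator, ranged from 25.1 to 31.6 CPM at 24 months (median 29.4) and from 16.8 to 37.7 CPM at 30 months (median 30.8). Again the lowest library was mouse 29 at 30 months, while mouse 75 had the highest value at that age, and 5 mice were higher at 30 months and 3 lower. The log2 change was -0.00236 (standard error 0.118, adjusted p = 0.996 by edgeR), and 0.11 without mouse 29 (adjusted p = 0.660).

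E2f3 (ENSMUSG00000016477, chr13:29906575-29986063), the other activator, had 11.1 to 17.7 CPM at 24 months (median 14.5) and 8.20 to 16.7 CPM at 30 months (median 13.1). Mouse 29 held the highest value at 24 months and the lowest at 30 months, and the ages overlapped in the other mice. The log2 change of -0.16 (standard error 0.137, adjusted p = 0.647 by edgeR) became -0.03 without mouse 29 (adjusted p = 0.925).

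The E2Fs that work with pocket proteins in resting cells had the smallest spread of the change within mice, with SDs of 0.12 (E2f4) and 0.09 (E2f5) on the log2 scale, against 0.16 to 0.91 in the other members. Without mouse 29 the SD of Rb1 was 0.12 as well. E2f4 (ENSMUSG00000014859, chr8:105297663-105305370) had 49.4 to 54.5 CPM at 24 months (median 53.2) and 45.3 to 58.9 CPM at 30 months (median 52.7). Its values varied by 3.09% around the mean at 24 months, the least of the 10 genes, and by 7.59% at 30 months. Neither age stood out, with 6 mice lower and 2 higher at 30 months and a log2 change of -0.03 (standard error 0.055, adjusted p = 0.817 by edgeR). E2f5 (ENSMUSG00000027552, chr3:14578641-14606309) ranged from 12.3 to 14.95 CPM at 24 months (median 14.8) and from 12.1 to 16.5 CPM at 30 months (median 14.5). Its ages overlapped almost wholly, the log2 change was 0.00292 (standard error 0.064, adjusted p = 0.990 by edgeR), and no mouse changed by more than 0.17 on the log2 scale. Both genes were among the members that moved least in mouse 29, with log2 changes of -0.15 for E2f4 and -0.06 for E2f5.

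E2f7 and E2f8 encode the atypical E2Fs, which bind DNA without a DP protein, are themselves E2F targets and repress E2F target genes late in S phase. E2f7 (ENSMUSG00000020185, chr10:110745439-110787384) was the scarcest member, with 20 to 82 counts per library. It had 1.38 to 2.66 CPM at 24 months (median 2.06) and 0.689 to 2.39 CPM at 30 months (median 1.94). E2f8 (ENSMUSG00000046179, chr7:48866429-48881596) had 9.07 to 14.7 CPM at 24 months (median 11.4) and 3.55 to 14.03 CPM at 30 months (median 10.2). For both, mouse 29 was the highest library at 24 months and the lowest of all 16 at 30 months. The log2 changes were -0.22 for E2f7 (standard error 0.228, adjusted p = 0.713 by edgeR) and -0.26 for E2f8 (standard error 0.217, adjusted p = 0.643 by edgeR). Without mouse 29 they were 0.000704 and -0.03. The change of E2f8 in the other 7 mice had an SD of 0.16 on the log2 scale, against 0.72 in all 8. Of the exons of E2f8, 11.2% overlap Gm2788 on the opposite strand, which had a mean of 0.215 CPM at 24 months, and whether reads were counted by strand is not given in the sources used here.

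**Figure D2:**
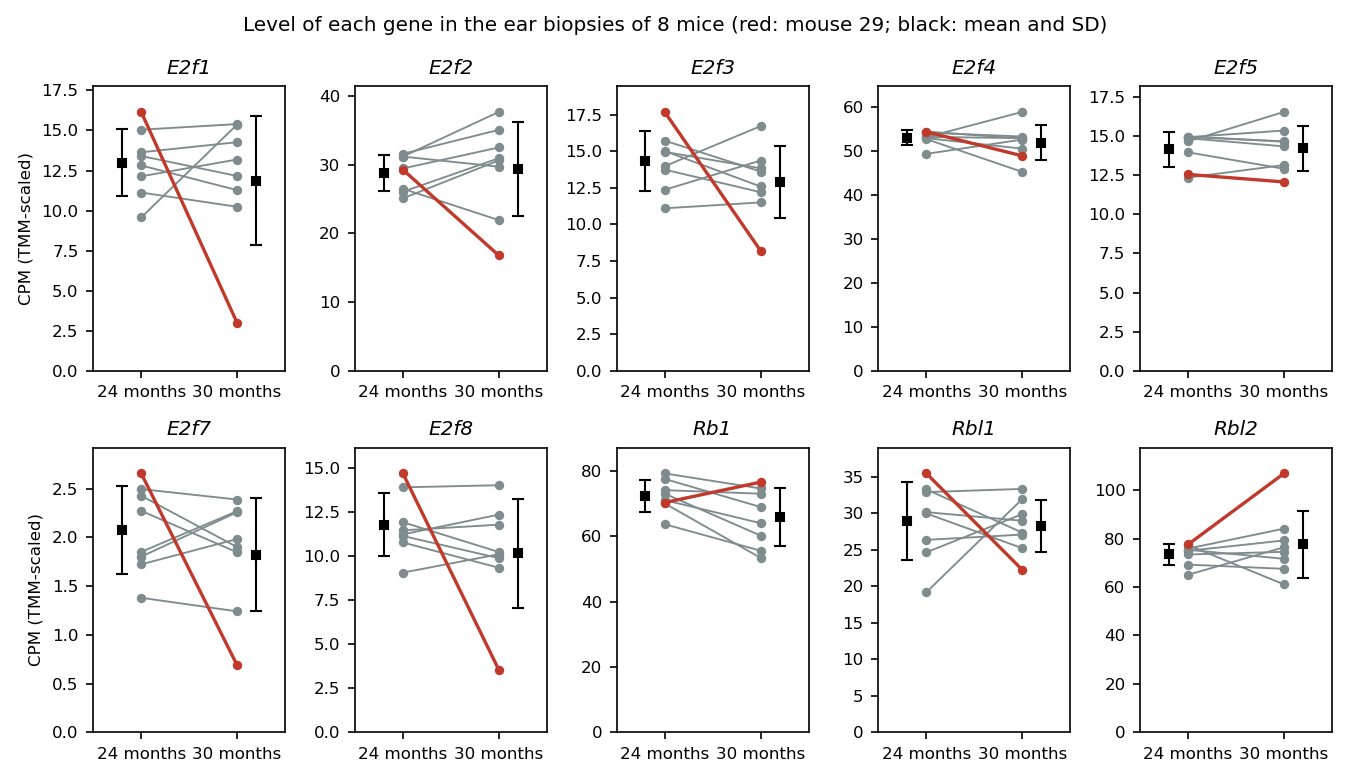
Level of each gene (TMM-scaled CPM, linear axis from 0) in each of the 8 mice at 24 and at 30 months, with lines joining the libraries of a mouse, mouse 29 in red, and the mean and SD of the 8 mice as black squares and bars. In mouse 29 the levels of E2f1 (16.2 to 3.0 CPM), E2f3, E2f7 and E2f8 (14.7 to 3.55 CPM) at 30 months lie below all other points of the gene, that of Rbl2 lies above them (77.6 to 107 CPM), and the Rb1 line slopes down in 7 of 8 mice.

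Rb1 (ENSMUSG00000022105, chr14:73183673-73325822), the retinoblastoma tumour suppressor, was the member with the smallest p. It ranged from 63.6 to 79.2 CPM at 24 months (median 72.0) and from 53.4 to 76.5 CPM at 30 months (median 66.4). In 7 of 8 mice the 30-month value was the lower, by 0.02 to 0.39 on the log2 scale, and only in mouse 29 was it higher, by 0.12, while the ranges of the ages overlapped. The log2 change was -0.15 (standard error 0.061, unadjusted p = 0.0374 and adjusted p = 0.385 by edgeR). The exact two-sided sign-flip test over all sign patterns of the 8 mice gave p = 0.0391, and an adjusted p of 0.384 over all genes. A lower value in 7 or 8 of the 8 mice was seen in 8.33% of all genes tested, and an unadjusted p under 0.05 with a lower level in 7.18%. Without mouse 29 the change was -0.18 (adjusted p = 0.408 by edgeR), and with each of the other mice left out in turn it stayed between -0.16 and -0.10, although the unadjusted p then exceeded 0.05 in 6 of those 7 fits. Exons of Rb1 overlap those of Rcbtb2 (8.1% of the Rb1 exon length) and Lpar6 (6.8%) on the opposite strand. These neighbours had log2 changes of 0.10 (adjusted p = 0.598 by edgeR) and -0.02 (adjusted p = 0.949).

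Rbl1 (ENSMUSG00000027641, chr2:157145893-157204534), a pocket protein gene that is itself switched on by E2F in dividing cells, had 19.2 to 35.4 CPM at 24 months (median 30.0) and 22.2 to 33.3 CPM at 30 months (median 28.1). The ages overlapped, with the lowest value in mouse 43 at 24 months and the highest in mouse 29 at 24 months. These mice moved in opposite directions, by 0.73 and -0.67 on the log2 scale, and the others by -0.28 to 0.28. Over all mice the log2 change was -0.02 (standard error 0.130, adjusted p = 0.950 by edgeR) and 0.07 without mouse 29.

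Rbl2 (ENSMUSG00000031666, chr8:91070057-91123844), the pocket protein of resting cells, ranged from 65.1 to 77.6 CPM at 24 months (median 75.2) and from 61.1 to 107 CPM at 30 months (median 75.5). The value of 107 CPM belonged to mouse 29, and the next highest was 84.1 CPM. The log2 change was 0.06 (standard error 0.080, adjusted p = 0.766 by edgeR), and 0.01 without mouse 29. Of its exons, 9.2% overlap Aktip on the opposite strand, whose log2 change was -0.11 (adjusted p = 0.552 by edgeR).

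The changes within single mice differed far more than the ages did. In mouse 29, 8 of the 10 members were lower at 30 months, against 50.6% of all genes tested, and 6 had the lowest of the 16 values there. The share of all genes with their lowest value in that library is not given here. The log2 change was below -1 in 4 members and in 7.22% of all genes, and 2773 genes changed by more than 1 log2 unit in either direction in this mouse, against 885 to 2070 in the others. Its log2 changes ran from -2.40 (E2f1), -2.03 (E2f8), -1.85 (E2f7) and -1.10 (E2f3) over -0.80 (E2f2) and -0.67 (Rbl1) to 0.12 (Rb1) and 0.46 (Rbl2). The activators, the atypical E2Fs and Rbl1 were lower in this library, and the pocket proteins Rb1 and Rbl2 were higher. Mouse 43 showed positive changes in E2f1 (0.68) and Rbl1 (0.73), with E2f1 at 9.57 CPM at 24 months, the lowest value of that age. In the remaining 6 mice no member changed by more than 0.39 on the log2 scale.

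**Figure D3:**
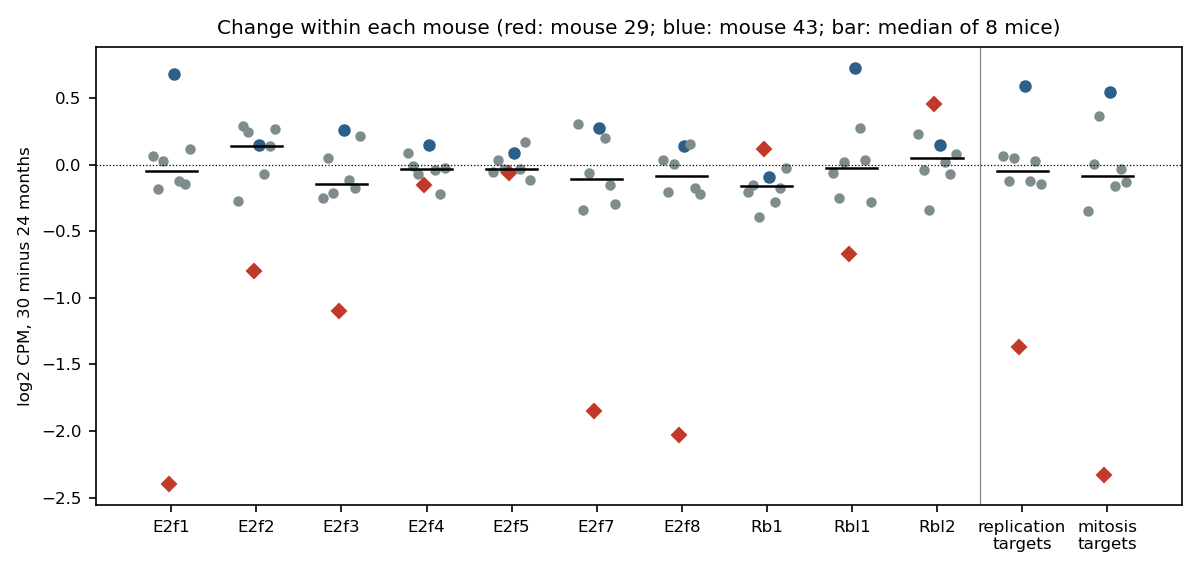
Log2 CPM at 30 months minus that at 24 months for each mouse, member by member and as the mean over the tested replication targets (41 genes) and mitosis targets (35 genes), with mouse 29 as red diamonds, mouse 43 in blue and the median of the 8 mice as a bar. Mouse 29 lies at -2.40 for E2f1 and at -2.33 for the mitosis targets, while its points for E2f4, E2f5 and Rb1 lie close to 0.

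The genes that E2F proteins are known to control moved with the activators, the atypical E2Fs and Rbl1 in the same library, but not with Rb1 and Rbl2. None of the 41 tested E2F targets of DNA replication passed the adjusted threshold and 0 had an unadjusted p under 0.05, with 34 negative and 7 positive changes and a median log2 change of -0.14, against 0.007 over all genes. Of 35 DREAM targets of mitosis, 0 passed the adjusted threshold and 1 had an unadjusted p under 0.05, all 35 changes were negative and their median was -0.18. Both directions rested on mouse 29: without it 28 of 41 and 25 of 35 changes were positive, with medians of 0.04 and 0.07, against 52.7% positive and a median of 0.01 over all genes in that fit. In that mouse all 42 replication genes of the list and all 35 mitosis genes were lower at 30 months, against 50.6% of all genes tested. Their lowest value of the 16 libraries lay there for 38 and 33 of them, and the matching share of all genes is not given here. The summed level of the mitosis genes went from 722 to 166 CPM in mouse 29, while the lowest sum at 24 months was 478 CPM. The list genes with the smallest p were Pola1, a subunit of DNA polymerase alpha (log2 change -0.26, adjusted p = 0.421 by edgeR), and Msh6, a mismatch repair gene (-0.17, adjusted p = 0.512), for replication. For mitosis they were the spindle checkpoint kinase Ttk (-0.50, adjusted p = 0.375) and the spindle gene Nusap1 (-0.43, adjusted p = 0.592).

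Other measured features of the 30-month library of mouse 29 also differed. Of 17 cell type marker lists, 5 had their lowest summed level of the 16 libraries there and 1 its highest. The summed level of the 5 pigment cell markers was 27.2 CPM, against 159 CPM in the same mouse at 24 months and 76.3 to 159 CPM in all 24-month libraries, with Dct at 8.93 CPM and Tyr at 1.03 CPM. The 10 hair follicle markers summed to 25.5 CPM (29.4 to 254 CPM at 24 months), and the 6 fibroblast markers to 2549 CPM (3763 to 7454 CPM). Within these lists Krt31 (1.06 to 1.21 CPM) and Pdgfra (66.2 to 78.3 CPM) were higher in mouse 29 at 30 months than at 24. The rest were lower, Hoxc13 only slightly (7.55 to 7.31 CPM). Lowest sums were also those of the 7 T cell markers, at 21.96 CPM (32.5 to 44.9 CPM at 24 months), and of the 6 B and plasma cell markers, at 1.03 CPM (1.58 to 3.67 CPM), which is near the floor. Of these, Cd8a (0.248 to 0.448 CPM) and Jchain (0.142 to 0.172 CPM) were higher in mouse 29 at 30 months. Ms4a1 was 0 at both ages of that mouse, and the rest were lower. The 6 fat cell markers summed to 824 CPM, the highest of the 16 libraries (116 to 333 CPM at 24 months), with Fabp4 at 528 CPM. Of this list Lep went the other way in mouse 29, from 5.99 CPM to 1.66 CPM, its lowest of the 16 libraries, and the others were higher. The 6 basal keratinocyte markers summed to 10150 CPM, the third lowest, against 14060 CPM in the same mouse at 24 months. Of these, Itga6 (336 to 442 CPM) and Col17a1 (2237 to 2385 CPM) were higher at 30 months in that mouse, and the others were lower. The library was not shallow, with 29875101 counts on genes. The part of cell type make-up in the low E2F values was not tested.

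Relations between the members and their targets across mice were computed for 10 members and both target lists, 20 relations in all, each over the 8 within-mouse changes. No relation passed an adjusted p of 0.05 (exact permutation over all orders of the mice, two-sided). E2f1 had r = 0.98 with the replication targets (exact p = 0.00694, adjusted p = 0.0573 over the 20 relations), but Spearman's rho was 0.57 (exact p = 0.151, adjusted p = 0.358). Without mice 29 and 43, the pair farthest from the median of the list change, r was 0.21 (exact p = 0.781), so the relation rests on those mice. Without mouse 29 alone r was 0.89 (exact p = 0.0556, adjusted p = 0.556). Rbl1 with the same list had r = 0.85 (exact p = 0.0210, adjusted p = 0.0606) and rho = 0.67 (exact p = 0.0831, adjusted p = 0.358). Its r was 0.83 without mouse 29 alone (exact p = 0.0466, adjusted p = 0.556) and 0.25 in the other 6 mice (exact p = 0.643). For E2f8 with the same list r was 0.93 (exact p = 0.0143, adjusted p = 0.0573) and rho 0.64 (exact p = 0.0962, adjusted p = 0.358), with r = 0.26 in the other 6 mice. E2f7 had r = 0.93 (exact p = 0.00784, adjusted p = 0.0573) and the highest rho of the 20 relations, 0.79 (exact p = 0.0279, adjusted p = 0.358), with r = 0.58 without mouse 29 and 0.46 in the other 6 mice. E2f2 with the mitosis targets had r = 0.90 (exact p = 0.00918, adjusted p = 0.0573), rho = 0.71 (exact p = 0.0576, adjusted p = 0.358) and r = 0.70 in the other 6 mice (exact p = 0.132, adjusted p = 0.879). Without mouse 29 alone its r was 0.55 (exact p = 0.173, adjusted p = 0.576) and without mouse 43 alone 0.92 (adjusted p = 0.0496 by exact permutation). Rbl2 with the mitosis targets had r = -0.74 (exact p = 0.0501, adjusted p = 0.0910), rho = -0.60 (exact p = 0.132, adjusted p = 0.358) and r = -0.98 in the other 6 mice (exact p = 0.00556, adjusted p = 0.111). Its r was -0.40 without mouse 29 alone (exact p = 0.381, adjusted p = 0.693) and -0.87 without mouse 43 alone (exact p = 0.000794, adjusted p = 0.0159), so its size depends on which of these mice is left out. Rb1 had r = -0.68 with the same list (exact p = 0.0794, adjusted p = 0.116), rho = -0.21 (exact p = 0.619, adjusted p = 0.738) with r = -0.11 without mouse 29 alone (exact p = 0.819) and -0.55 in the other 6 mice (exact p = 0.229). E2f3 turned from r = 0.87 with the replication targets, over 0.34 without mouse 29 alone (exact p = 0.545), to -0.85 in the other 6 mice (exact p = 0.0111, adjusted p = 0.111). The labels name no batch within which to repeat these relations.

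**Figure D4:**
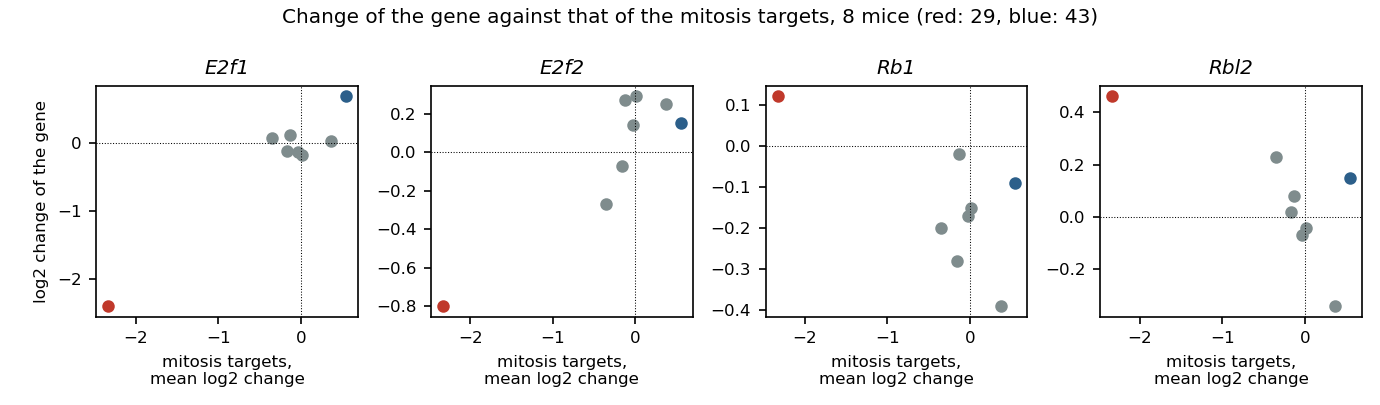
Log2 change within each of the 8 mice of E2f1, E2f2, Rb1 and Rbl2 (vertical axes, each with its own scale) against the mean log2 change of the 35 mitosis targets (horizontal axis), with mouse 29 in red and mouse 43 in blue. For E2f1 (r = 0.96) the red point lies far from the other 7, and for Rbl2 (r = -0.74) r is -0.40 without the red point and -0.98 over the 6 grey points alone.

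The E2F partners outside the members did not pass the threshold either. Tfdp1, the main DP partner, had 40.4 ± 2.16 CPM at 24 months and 40.1 ± 5.07 CPM at 30 months (SD, n = 8), a log2 change of -0.02 (adjusted p = 0.936 by edgeR). Tfdp2, its relative, had 84.5 ± 8.17 and 96.1 ± 19.9 CPM (log2 change 0.17, adjusted p = 0.526), with its highest value of 140 CPM in mouse 29 at 30 months. E2f6, a repressor E2F that does not bind pocket proteins, had 21.5 ± 3.27 and 20.2 ± 4.19 CPM (log2 change -0.10, adjusted p = 0.716). Of the 7 genes of the MuvB core and its MYB partners, 0 had an unadjusted p under 0.05. Their median log2 change was 0.01, or 0.05 without mouse 29. Mybl1, a MYB relative, changed by -0.27 (adjusted p = 0.491) and Lin52, a MuvB subunit, by 0.13 (adjusted p = 0.529).

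Upstream of the pocket proteins, 0 of 9 G1 cyclins and kinases and 0 of 7 cyclin-dependent kinase inhibitors passed the adjusted threshold. Of the G1 genes 1 had an unadjusted p under 0.05 and 7 changes were negative, with a median log2 change of -0.15. Without mouse 29, whose 30-month sum of these genes (592 CPM) was the lowest of the 16 libraries, the median was -0.08 with 3 positive changes of 9. The smallest p values were those of Cdc25a, a phosphatase that activates Cdk2 (log2 change -0.20, adjusted p = 0.402 by edgeR), and Ccne2, a cyclin of S phase entry (-0.26, adjusted p = 0.437). Of the inhibitors 3 had an unadjusted p under 0.05, 2 higher and 1 lower, which is 3 of 7 against 12% of all genes. Cdkn2a is the gene of p16, a protein that keeps pocket proteins active, and of Arf, which is counted with it. It went from 0.223 ± 0.0674 to 0.567 ± 0.512 CPM (SD, n = 8), higher in 8 of 8 mice (log2 change 1.11, adjusted p = 0.288 by edgeR). The share of all genes higher in 8 of 8 mice is not given here. Cdkn2a was near the floor, from 0.0709 CPM (mouse 29 at 24 months) to 1.575 CPM in the 16 libraries, so its change is imprecise. Its neighbour Cdkn2b went from 18.0 ± 1.08 to 14.7 ± 2.66 CPM (log2 change -0.31, adjusted p = 0.296), higher in 1 of 8 mice. Among 10 co-repressors that pocket proteins recruit, 2 had an unadjusted p under 0.05: the histone methyltransferase genes Kmt5b (log2 change -0.18, adjusted p = 0.294) and Suv39h1 (0.17, adjusted p = 0.400).

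The genes whose level followed a member most closely were found by Pearson's correlation of log2 CPM over the 16 libraries among 17786 genes with a mean of at least 1 CPM, given as a description, since the libraries share mice and the value of mouse 29 at 30 months weighs on many of them. For E2f1 they were Uhrf1 (r = 0.98, and 0.92 without that library), Gm5648 (0.98 and 0.85) and Dtl (0.97 and 0.81). E2f8 had Kntc1, Uhrf1 and E2f1 itself (0.96 each, and 0.77, 0.81 and 0.75 without that library). For E2f7 they were Mcm2, Lmnb1 and Plk1 (0.90 to 0.91, and 0.76 to 0.79), for E2f2 Btbd10, Kif4 and Depdc1a (0.84 to 0.87, and 0.60 to 0.74) and for E2f3 Gm37752, Scd2 and Tyr (0.88 to 0.89, and 0.74 to 0.77). The genes closest to Rb1 owed little to that library: Aff4 (r = 0.95 with and without it), Vgll3 (0.93 and 0.93) and Itprid2 (0.93 and 0.96). Rbl1 was closest to Brip1os (0.94 and 0.93), Mcm3 (0.88 and 0.87) and Tcf19 (0.85 and 0.83), and Rbl2 to Tut4, Khnyn and Irs2 (0.93 each, 0.82 each without it). E2f4 was closest to Urb2, Anapc1 and Kpnb1 (0.88 to 0.90) and E2f5 to Actr6, Med11 and Magohb (0.79 to 0.84).

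Between the members themselves, E2f1 and E2f8 had the highest correlation over the 16 libraries (r = 0.96), which was 0.75 without the 30-month library of mouse 29. E2f1 with Rbl1 went from 0.63 to 0.76 without it, and E2f7 with E2f8 went from 0.88 to 0.66. Other pairs owed their value to that library: E2f1 with E2f2 went from 0.63 to -0.19 and E2f1 with Rbl2 from -0.69 to 0.06. Rb1 and Rbl2 kept a correlation of 0.54 with it and 0.57 without it, and Rbl2 and E2f5 one of -0.66 and -0.53.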

How the data were processed

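Poly(A) RNA libraries of mouse ear clips were sequenced by the authors, and the values they deposited are raw read counts for each Ensembl gene in each library. The submitters' processing notes name CASAVA 1.8.4, TopHat2 2.1.0, HTSeq 0.6.1p1 and the genome build mm10 (GRCm38), whereas the strand setting is not given in the sources used here. A total of 5 summary lines, which held 18.7% to 21.1% of the reads, were left out. Symbols, positions and exon lengths came from GENCODE M21 for 45143 of 45706 gene identifiers. Depth was 22967222 to 36162431 counts per library. Samples were grouped by the age category in the labels, and the nominal ages are those of the study's methods.

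Counts were tested with edgeR 4.0.16 in R 4.3.3 (TMM, filterByExpr, quasi-likelihood test, two-sided, Benjamini-Hochberg adjustment, threshold 0.05) with a term for each mouse, since libraries with the same number in their titles come from the same animal. As a check, the residuals of both libraries of a mouse, after subtracting the mean of each age, correlated at -0.429 to 0.320 (median -0.023), against a median of -0.005 for libraries of different mice. Within-mouse changes are differences of log2 CPM with a prior count of 2. Relations and sign-flip tests used exact enumeration (Python 3.11.15, numpy 2.4.6, scipy 1.17.1). Nothing but the labels says that the libraries are separate extractions. The p-values of the blocked edgeR fit and the sign-flip tests rest on the spread, between mice, of the change within a mouse. That spread also holds differences between the clips and libraries of an animal. The edgeR step was tested on simulated data.

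Alternatives were no replicate block, DESeq2 size factors, library size only, the Wald test of DESeq2 1.42.0, all genes without a count filter, each mouse left out, a sign-flip test, RPKM with a pseudocount of 0.1 and summed CPM of a list. Counts of target directions under these fits, and list medians without mouse 29, were added after seeing the data. The members, gene lists, marker lists and tests were chosen with earlier results of these data known. Genes named beside the members were the DP genes and E2f6, the 2 tested genes of each pathway list with the smallest unadjusted p, and the 3 genes most correlated with each member. Overlapping neighbours, Flg and single markers were named after their values were seen.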

Additional observations from a re-analysis of the deposited data

Results flagged for a closer look

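Values far from the rest of their group were looked for in 32 groups of 8 values: each member at each age, each member's change within mice, and the changes of both target lists. The lowest or highest value was set apart by more than Dixon's 95% limit in 9 groups, where chance alone flags about 1 in 20, or 1.6 groups.

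In 8 of the 9 the value came from mouse 29 and was the lowest. They were E2f1 at 30 months (3.0 CPM, the next at 10.2 CPM), E2f8 at 30 months (3.55 CPM, the next at 9.35 CPM), and the log2 changes of E2f1 (-2.40), E2f3 (-1.10), E2f7 (-1.85), E2f8 (-2.03), the replication targets (-1.37) and the mitosis targets (-2.33). The groups share 1 library and are not separate events. The 9th was E2f4 at 24 months, where mouse 13 had 49.4 CPM and the next mouse 52.7 CPM.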

How the results depend on the processing

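Genes past the adjusted threshold numbered 0 in the blocked edgeR fit, 3 with no replicate block on the mouse and 228 in DESeq2's Wald test, and the number of members past it was 0 in every fit. The count of members at an unadjusted p under 0.05 (1, Rb1) was 0 with no replicate block, 0 in the Wald test, and 0 to 1 with a mouse left out. Positive changes, 2 of 10 members, were 1 with library size only and 1 to 6 with a mouse left out. For the replication targets the 7 positive changes became 4 to 28 with a mouse left out, and for the mitosis targets 0 became 3 without the block and 0 to 25 with a mouse left out, the highest without mouse 29 each time. Of the 20 relations, 6 passed with library size only and 0 to 2 with a mouse left out, against 0. Without mouse 43 they were E2f2 and Rbl2 with the mitosis targets. With the replication targets they were E2f8 (adjusted p = 0.00397 by exact permutation) and E2f7 (0.0258) without mouse 50, and E2f1 (0.0238) without mouse 75. Mouse 29 was part of each of these, and without it 0 passed.

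Signs turned for E2f2, E2f5 and Rbl1, whose changes lay near 0, and for E2f1 and E2f7 without mouse 29. E2f2 turned to 0.03 with no replicate block and to 0.01 with DESeq2 size factors, in the Wald test and without mouse 50. It was 0.05 without mouse 13 and 0.11 without mouse 29. E2f5 turned to -0.01 with library size only, -0.00223 without mouse 14, -0.00341 without mouse 43 and -0.02 without mouse 64. Rbl1 turned to 0.01 without mouse 14, 0.07 without mouse 29 and 0.02 without mouse 75. E2f1 (-0.20 over all mice) turned to 0.07 and E2f7 (-0.22) to 0.000704 without mouse 29. With a mouse left out, E2f1 ran from -0.32 to 0.07, E2f2 from -0.04 to 0.11, E2f7 from -0.29 to 0.000704 and Rbl1 from -0.13 to 0.07. The cause was not tested. E2f3, E2f4, E2f8, Rb1 and Rbl2 kept their sign in all 16 fits and tests, Rb1 between -0.18 and -0.10. The others came close to 0 without mouse 29, with -0.03 for E2f3 and E2f8, -0.01 for E2f4 and 0.01 for Rbl2.

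Counts of 20 to 82 reads limit the precision of E2f7. The smallest p of the sign-flip test is 0.00781.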
